A study of Mus musculus with 20 samples.

Results

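The 35 genes described here encode 22 glycolytic enzymes and transporters and 13 factors and targets of the hypoxia response. They were taken by symbol from the deposited tables of raw counts, 1 table for each day, which share 24394 symbols, and all 35 symbols were present. The cells were fibroadipogenic progenitors, the muscle-resident stromal cells from which fibroblasts and fat cells can arise, sorted fresh from the hindlimb of male C57BL/6J mice. KPC mice carried cultured KPCY cells, a mouse pancreatic tumour line, in the pancreas, and control mice had sham surgery. Libraries were made at day 14 (3 control, 4 KPC), day 21 (3 and 3) and day 26 (4 and 3), with separate controls at each day. The labels call the libraries biological replicates, name no allele that differs between the mice, and give no age and no animal for each library, so it is not known whether a library came from 1 mouse.

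Glycolysis turns glucose into pyruvate. Glucose enters through carriers, hexokinase traps it as glucose 6-phosphate, and phosphofructokinase makes the committed step, which the PFKFB enzymes set by making or removing its activator fructose 2,6-bisphosphate. Lactate dehydrogenase interconverts pyruvate and lactate, and monocarboxylate carriers move lactate across the membrane. In low oxygen the prolyl hydroxylases encoded by Egln genes no longer mark HIF alpha subunits for destruction. HIF then pairs with ARNT on DNA and raises transcription of many of these same enzymes, of Vegfa and Adm, and of Bnip3 and Bnip3l, which act in the removal of mitochondria. HIF is controlled mainly as a protein, which transcript counts do not measure.

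Each library held between 12.9 and 26.4 megacounts. The 10 progenitor markers were detected in every group and summed to 103616 to 108494 CPM (counts per megacount of library, on 1 scale for all 20 libraries) in day 14 controls. At day 21, 5 of them were called lower and 1 higher, and at day 26 they summed to 38378, 66413 and 109824 CPM in KPC replicates 1, 2 and 3 against 107783 to 126798 CPM in the controls. Gsn was the largest part of each of these sums (19669, 39033 and 66776 CPM against 55331 to 63575 CPM). In the same libraries Pdgfra measured 1198, 1430 and 1415 CPM against 1256.5 to 1410 CPM. Dcn measured 14973, 22173 and 15202 CPM against 11382 to 15357 CPM. Ly6a, Lum, Pi16, Cd34, Col1a1, Col3a1 and Dpt were below every day 26 control in KPC replicates 1 and 2. KPC replicate 3 at day 26 stood apart from the other KPC libraries of its day. It lay at -8.72 on the first principal component, against 127 and 106 for replicates 1 and 2 and -35.8 to -13.7 for the 10 controls, so day 26 results are also given without it. Leaving it out removes the KPC library nearest to the controls, and so favours differences. The sort excluded cells with CD31 and CD45, yet all 10 endothelial markers were detected. Tek alone made up most of their sum in controls and fell at day 21 (-0.47 ± 0.12 (SE, adjusted p = 0.0271) in edgeR), so the other 9 were summed apart, a choice made after the values were seen. Those 9 summed at day 14 to 44.5 to 118 CPM (controls) and 235 to 376 CPM (KPC), and at day 21 to 87.8 to 97.1 CPM (controls) and 572, 331 and 167 CPM (KPC replicates 1, 2 and 3), with every KPC library above every control at both days. Day 26 sums were 28.98 to 101 CPM (controls) and 892, 98.8 and 61.7 CPM (KPC replicates 1, 2 and 3), where only replicate 1 exceeded the controls. With Tek included, the day 14 KPC libraries still lay above the controls (544 to 719 against 411 to 486 CPM). At day 21 the sums with Tek were 971, 631 and 508 CPM in KPC replicates 1, 2 and 3 against 552 to 586 CPM in controls. At day 26 they were 1025, 327 and 426 CPM against 385 to 552 CPM. KPC replicate 1 at day 21 and KPC replicate 1 at day 26 also had the highest summed myofibre markers of their days (535 and 271 CPM) and the highest leukocyte markers (127 and 334 CPM). In sorted bulk RNA a change in which cells were caught and a change in RNA per cell cannot be told apart.

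Control levels of the glycolytic genes spanned a wide range. Per kilobase of exon, the median over 10 controls was 177 CPM for the aldolase gene Aldoa, 62.4 for the pyruvate kinase gene Pkm, 55.5 for Gapdh and 49.6 for the lactate dehydrogenase gene Ldha. The lower-step genes Aldoa, Pkm, Gapdh and Tpi1 (44.0) lay above the entry-step genes Gpi1 (28.3), Pfkm (13.9), Hk1 (13.6) and Pfkp (11.02). Pgk1 (11.6) and Pgam1 (8.42), also lower steps, lay near or below those entry-step genes. Both share much sequence with copies (next paragraph), so their low counts may not give their true levels. The same level was 3.90 for the glucose carrier Slc2a1, 7.59 for the hexokinase Hk2 and 1.62 for Pfkfb3. Among hypoxia genes Adm (60.4, range 50.7 to 73.9) and Vegfa (54.6, range 43.3 to 86.2) led, and their control ranges overlapped. Ankrd37, a hypoxia-induced ankyrin repeat gene, was low (0.567). Aldoc, the brain-type aldolase, reached at most 0.447 CPM in any library and was never tested. Eno1, the main enolase of most tissues, is listed at 0 to 1.30 CPM and was too low to test at day 21. Of the 59-base words in its exons, 24.8% occur in another gene, mostly Eno1b, so its low count may not give its true level, and it is not read further here.

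Several members share sequence with processed copies, and the treatment of such reads by the authors' counting program is not known here. The share of 59-base exon words found in another gene was 53.5% for Pgk1, 42.3% for Bnip3, 35.7% for Pgam1, 24.1% for Gapdh, 22.6% for Pkm and 19.4% for Bnip3l. Their counts are uncertain by an amount that this share does not give. For Adm, Hk2, Pfkfb4, Epas1, Arnt and Vegfa the share was 0%, and for Pfkfb3 0.05%. Bnip3 also overlaps Gm45507 on the other strand.

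The members' promoters are shown for 5 genes because the data separate them: Adm, Bnip3 and Pfkfb3 rose in KPC progenitors at day 21, and Ldha and Pgk1, which belong to the same HIF-responsive programme in textbooks, did not pass the test at any day. The stretches run from 250 to 21 bases before the RefSeq start site (GRCm38.p6), hold no annotated exon, and are written 5′ to 3′ on the gene's strand. Capitals mark ACGTG and GCGTG, the letters of the HIF binding core, on either strand, so that CACGT and CACGC are the same words read from the other side. The overlapping words of CACGTG are counted apart.
Adm, chr7:110627407-110627636, plus strand: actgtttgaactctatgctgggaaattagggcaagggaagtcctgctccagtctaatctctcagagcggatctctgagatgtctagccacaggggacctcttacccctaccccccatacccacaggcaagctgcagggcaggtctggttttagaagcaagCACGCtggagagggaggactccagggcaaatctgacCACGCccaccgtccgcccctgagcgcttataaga
Bnip3, chr7:138909527-138909756, minus strand: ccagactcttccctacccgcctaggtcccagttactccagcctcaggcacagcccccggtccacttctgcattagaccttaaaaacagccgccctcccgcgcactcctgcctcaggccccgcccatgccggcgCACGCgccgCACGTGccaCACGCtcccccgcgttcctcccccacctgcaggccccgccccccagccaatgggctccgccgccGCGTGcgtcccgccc
Pfkfb3, chr2:11502111-11502340, minus strand: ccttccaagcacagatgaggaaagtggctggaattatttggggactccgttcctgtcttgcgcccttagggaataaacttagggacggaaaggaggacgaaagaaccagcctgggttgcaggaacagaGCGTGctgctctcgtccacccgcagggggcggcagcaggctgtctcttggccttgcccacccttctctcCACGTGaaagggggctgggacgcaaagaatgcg
Ldha, chr7:46845554-46845783, plus strand: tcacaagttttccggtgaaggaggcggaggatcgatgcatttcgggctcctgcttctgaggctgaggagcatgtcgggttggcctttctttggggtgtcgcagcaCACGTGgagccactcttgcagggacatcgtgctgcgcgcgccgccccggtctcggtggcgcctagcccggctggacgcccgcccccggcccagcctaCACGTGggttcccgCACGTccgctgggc
Pgk1, chrX:106186850-106187079, plus strand: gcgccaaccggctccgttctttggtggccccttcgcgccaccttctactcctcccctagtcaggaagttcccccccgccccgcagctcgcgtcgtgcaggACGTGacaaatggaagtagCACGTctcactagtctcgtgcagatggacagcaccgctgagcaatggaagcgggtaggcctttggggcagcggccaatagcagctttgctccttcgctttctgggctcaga
The Adm stretch holds 2 words of the GCGTG kind and the Bnip3 stretch 5 words of both kinds. The Ldha stretch holds 5 of the ACGTG kind, so genes that rose and genes that did not pass the test both carry them. Ldha and Pfkfb3 each have 2 RefSeq promoters. For Pfkfb3 the one without annotated exon bases is shown, and for Ldha, where neither has any, the first by position. The other Ldha stretch holds 0 of the ACGTG and 1 of the GCGTG kind. RefSeq promoters (250 bases before to 50 after the start) were matched for 31 of the 35 members, and 29 of those members (93.55%) held a word of either kind in at least 1 promoter, against 46.73% of 27025 genes. ACGTG alone was in 67.74% of the members and 21.78% of all genes, and GCGTG alone in 70.97% and 35.15%. Counted per promoter, 82.22% of 45 member promoters held either word, against 43.77% of 32851 promoters. ACGTG was in 53.33% and 19.62% of these, and GCGTG in 60% and 32.39%. The list holds known hypoxia targets by choice, so these shares are not independent of how it was made. These matches are descriptions of sequence and show no binding.

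The comparison of KPC with control mice asks how these transcripts differ with time after tumour cell injection. At day 14 only the hexokinase gene Hk2 passed the test, and it was lower in KPC. At day 21 Pfkfb3, Pfkl, Ldhb, Adm and Bnip3 rose and Hk1 and Pfkfb4 fell. At day 26 no member passed in edgeR's fit of that day, although Pfkfb3, Adm and Bnip3 had log2 fold changes of 3.82 ± 0.78, 2.91 ± 0.47 and 2.99 ± 0.55 (SE). DESeq2 and limma-voom, with every library kept, called these genes and others at day 26 (next paragraph). The main test was edgeR's quasi-likelihood test, with Benjamini-Hochberg adjustment over all genes of a day and a threshold of 0.05, and a gene past it is called.

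At day 14, 0 of 34 tested members were called higher, where 0.682% of 13344 genes were, and 1 was called lower, where 0.435% were. DESeq2 and limma-voom each called 1 member higher and 1 lower at day 14 (5.88% in all, against 4.5% and 4.86% of genes), and 5 members (14.7%) had an unadjusted p under 0.05 in edgeR, as had 14.3% of genes. At day 21, 5 of 33 members (15.2%) were called higher against 6.38% of 13154 genes, and 2 (6.06%) were called lower against 6.11%, so the share called lower lay near the background. The 3 higher glycolytic genes were among 20 tested, and the 2 higher hypoxia genes among 13. The members were chosen with earlier results of these data known, so these shares are descriptions, not independent tests. At day 26, 0 of 34 were called, as were 0% of 13157 genes, while 14 members (41.2%) had an unadjusted p under 0.05 against 34.3% of genes, 13 of them higher. DESeq2 called 9 members (26.5%) at day 26, all higher, against 21.4% of genes, and limma-voom with quality weights called 11 higher and 3 lower (41.2% in all) against 34.3%. Both kept KPC replicate 3, and both called Slc2a1, Slc2a3, Pfkfb3, Ldhb, Slc16a1, Epas1, Adm, Bnip3 and Bnip3l higher. Only limma-voom called Pfkl and Pdk1 higher and Hk1, Pfkp and Pfkfb4 lower. Without KPC replicate 3, edgeR called 14 members higher (41.2%, against 25.7% of genes) and 6 lower (17.6%, against 25.9%).

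The median log2 fold change of the tested members was 0.069 at day 14, 0.095 at day 21 and 0.106 at day 26, and that of all genes tested was 0.007, 0.009 and -0.003. Groups did not overlap for 4 of 34 members (11.8%) at day 14, 13 of 33 (39.4%) at day 21 and 6 of 34 (17.6%) at day 26. The same held for 13.3%, 33.2% and 29% of all genes. By median and by overlap the list lay near all genes at days 14 and 21, and the values below belong to single genes. Fitting all 20 libraries together, with a spread per gene shared by all groups, ended the call of Hk2 at day 14 (adjusted p = 0.474 in edgeR). It also ended every day 21 call except that of Adm (adjusted p between 0.0546 and 0.132). At day 26 the same fit added calls in both directions, which are counted in the last section. The cause of these shifts was not tested. Without the low-count filter the day 21 calls of Adm (adjusted p = 0.0579) and Bnip3 (0.0845) were lost.

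**Figure D1:**
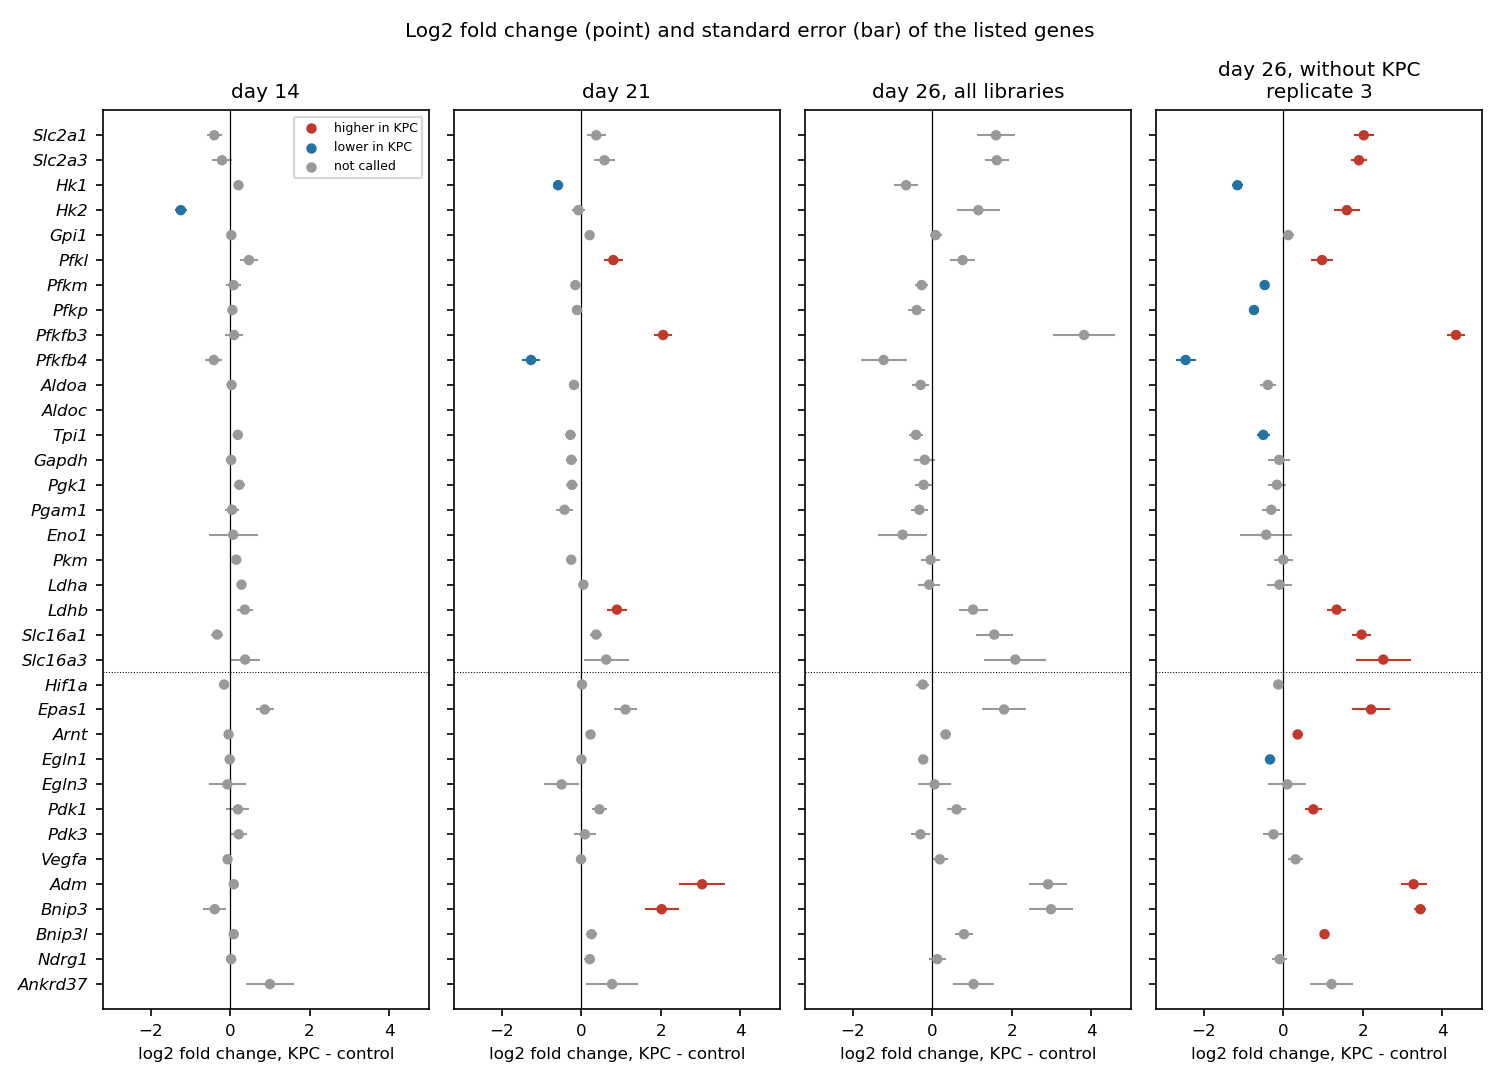
Log2 fold change of KPC over control (x axis) with its standard error for the listed genes (y axis), at days 14, 21 and 26 and at day 26 without KPC replicate 3; the dotted line separates glycolytic genes (above) from hypoxia genes. Pfkfb3, Adm and Bnip3 lie far to the right from day 21 on, while the lower glycolytic genes from Aldoa to Ldha lie closer to 0.

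Among glucose carriers, edgeR called neither gene in the full set of libraries at any day, while DESeq2 and limma-voom called both higher at day 26 (adjusted p = 0.0128 and 0.0053 for Slc2a1, 0.000188 and 0.00103 for Slc2a3). Slc2a1 (GLUT1), the basal glucose carrier, measured 14.7, 18.2 and 17.6 CPM in day 14 controls and 10.5, 15.3, 9.73 and 14.9 CPM in day 14 KPC libraries. At day 21 it measured 11.8, 16.8 and 10.1 CPM in controls and 21.9, 15.5 and 13.1 CPM in KPC. At day 26 it measured 13.5, 13.9, 12.5 and 13.4 CPM in controls and 73.9, 35.1 and 11.98 CPM in KPC. KPC replicates 1 and 2 at day 26 were above every control, and replicate 3 was below every control of that day. The difference at day 26 was log2 fold change 1.60 ± 0.49 (SE), adjusted p = 0.0824 in edgeR, and without replicate 3 it was log2 fold change 2.03 ± 0.26 (SE), adjusted p = 0.000468. Slc2a3 (GLUT3), a high-affinity carrier, measured 5.22, 6.30, 5.33 and 6.12 CPM in day 26 controls and 17.7, 26.1 and 9.60 CPM in day 26 KPC libraries. All 3 KPC libraries lay above all 4 controls (log2 fold change 1.62 ± 0.31 (SE), adjusted p = 0.0592 in edgeR, and log2 fold change 1.90 ± 0.20 (SE), adjusted p = 0.000129 without replicate 3). At days 14 and 21 its log2 fold changes were -0.20 ± 0.25 and 0.59 ± 0.26 (SE), and the groups overlapped at both.

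The hexokinase genes changed at different days. Hk2, the inducible form (Ensembl ENSMUSG00000000628.10, chromosome 6, 82725025 to 82774454, mm10), measured 82.6, 54.7 and 61.2 CPM in day 14 controls and 22.5, 31.5, 28.4 and 28.6 CPM in KPC. The groups did not overlap, and Hk2 fell at day 14 (log2 fold change -1.24 ± 0.15 (SE), adjusted p = 0.00318 in edgeR). These controls were high for the gene: controls of day 21 measured 28.9, 21.5 and 21.6 CPM and those of day 26 43.5, 54.02, 47.2 and 31.02 CPM, so the day 14 KPC libraries lay within the control range of the other days. KPC libraries measured 24.7, 22.9 and 21.5 CPM at day 21, overlapping their controls. At day 26 they measured 182, 85.2 and 25.7 CPM, with replicates 1 and 2 above every control and replicate 3 below (log2 fold change 1.16 ± 0.54 (SE), adjusted p = 0.164 in edgeR). Without replicate 3 Hk2 was called higher (log2 fold change 1.60 ± 0.33 (SE), adjusted p = 0.0061), opposite in sign to day 14.

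Hk1, the constitutive form that docks on mitochondria (chromosome 10, 62268855 to 62379908, mm10), measured 87.3, 95.03 and 76.9 CPM in day 14 controls and 94.2, 96.9, 110.5 and 94.8 CPM in day 14 KPC libraries. At day 21 controls measured 124, 134 and 119 CPM and KPC libraries 92.95, 72.5 and 87.96 CPM. Every day 21 KPC library was below every control, and Hk1 fell (log2 fold change -0.58 ± 0.12 (SE), adjusted p = 0.00833 in edgeR). At day 26 controls measured 119.9, 119, 113 and 107 CPM and KPC libraries 58.7, 45.3 and 113 CPM, so that replicates 1 and 2 were below the lowest control and replicate 3 within the control range (log2 fold change -0.66 ± 0.29 (SE), adjusted p = 0.153 in edgeR, and log2 fold change -1.16 ± 0.15 (SE), adjusted p = 0.000373 without replicate 3). With every library kept, limma-voom called Hk1 lower at day 26 (adjusted p = 0.00254) and DESeq2 did not (0.113). As a share of Hk1 plus Hk2 per kilobase, Hk2 made up 57.5, 45.1 and 53.2% in day 14 controls and 25.4, 31.7, 26.9 and 30.1% in KPC. At day 21 it made up 25.03, 18.7 and 20.5% in controls and 27.5, 31.1 and 25.9% in KPC. At day 26 it made up 34.1, 39.4, 37.4 and 29.3% in controls and 81.6, 72.9 and 24.6% in KPC. In KPC replicates 1 and 2 at day 26, Hk2 was the more abundant hexokinase transcript per kilobase, which it was not in any day 21 or day 26 control.

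The PFKFB pair moved in opposite directions at day 21. Pfkfb3, whose enzyme mainly makes fructose 2,6-bisphosphate (ENSMUSG00000026773.19, chromosome 2, 11471433 to 11554077, mm10), measured 13.6, 14.6 and 14.03 CPM in day 14 controls and 9.39, 20.3, 13.8 and 16.3 CPM in KPC. At day 21 it measured 7.76, 8.03 and 10.2 CPM in controls and 34.9, 48.9 and 25.7 CPM in KPC. The day 21 groups were far apart, and Pfkfb3 rose with the smallest p of the members at that day (log2 fold change 2.06 ± 0.23 (SE), adjusted p = 0.000243 in edgeR). At day 26 it measured 10.6, 17.8, 13.5 and 11.03 CPM in controls and 302, 243 and 16.7 CPM in KPC. Replicates 1 and 2 exceeded every other library of the series, and replicate 3 lay within the control range (log2 fold change 3.82 ± 0.78 (SE), adjusted p = 0.0599 in edgeR, and log2 fold change 4.35 ± 0.22 (SE), adjusted p = 8.26e-06 without replicate 3). DESeq2 and limma-voom, with every library kept, called Pfkfb3 higher at day 26 (adjusted p = 3.04e-06 and 0.00252).

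Pfkfb4, which encodes a related form of the same enzyme, went the other way. It measured 21.7, 16.6 and 24.8 CPM in day 21 controls and 10.8, 6.78 and 8.86 CPM in day 21 KPC libraries, with no overlap, and it fell (log2 fold change -1.26 ± 0.22 (SE), adjusted p = 0.0039 in edgeR). Day 26 values were 18.3, 19.9, 26.9 and 18.8 CPM in controls and 4.41, 3.30 and 19.00 CPM in KPC (log2 fold change -1.22 ± 0.57 (SE), adjusted p = 0.168 in edgeR, and log2 fold change -2.46 ± 0.25 (SE), adjusted p = 0.000128 without replicate 3). With every library kept, limma-voom called Pfkfb4 lower at day 26 (adjusted p = 0.0131) and DESeq2 did not (0.0918). Pfkfb3 made up 18.7, 23.8 and 20.9% of the pair per kilobase in day 21 controls and 67.6, 82.3 and 65.2% in KPC. At day 26 the shares were 27.1, 36.6, 24.4 and 27.5% in controls and 97.8, 97.9 and 36.1% in KPC. At day 14 the KPC shares, 26.8, 45.7, 30.8 and 53.6%, overlapped those of controls (29.00, 31.9 and 31.5%).

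**Figure D2:**
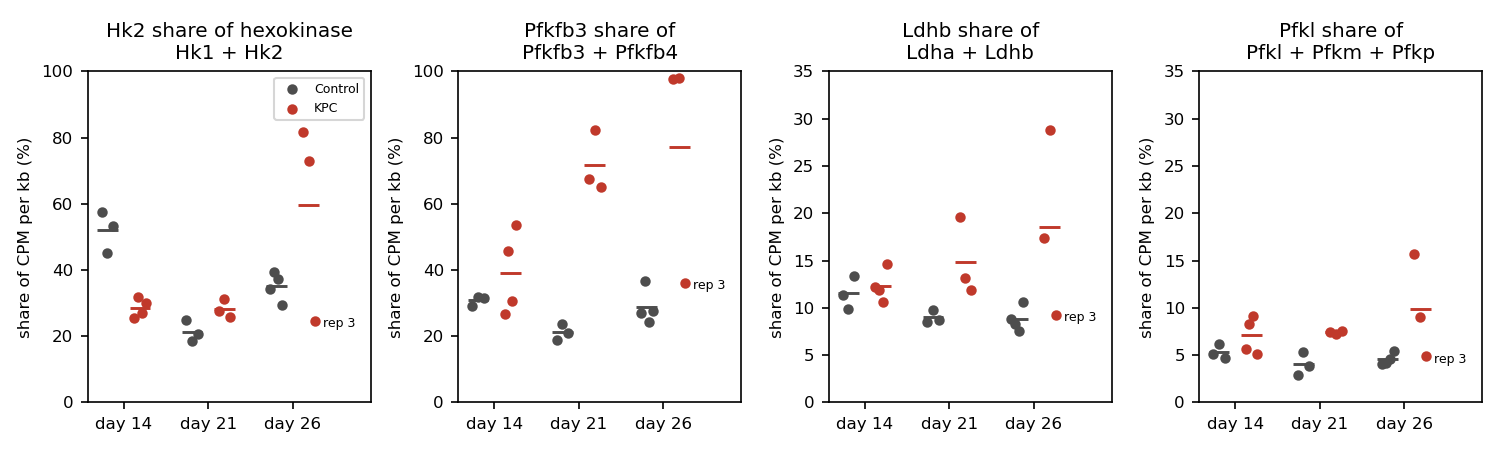
Share (y axis, percent of CPM per kilobase) taken by Hk2, Pfkfb3, Ldhb and Pfkl within their group of related genes, in each library (points) by day, with group means (lines). Hk2 and Pfkfb3 hold the larger share in KPC replicates 1 and 2 at day 26, 81.6% and 72.9% for Hk2 and 97.8% and 97.9% for Pfkfb3, while replicate 3 lies at 24.6% and 36.1%.

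These shares were chosen after the values were seen. Of 24 comparisons, 8 shares at 3 days, no exact 2-sided permutation test passed after adjustment (smallest adjusted p = 0.2667). The smallest p such a test can give is 0.0286 with 3 against 4 libraries, reached by Hk2 at day 14, and 0.10 with 3 against 3, reached by Hk2, Pfkfb3, Ldhb and Pfkl at day 21.

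Of the phosphofructokinase genes, the low-abundance liver form Pfkl rose at day 21 and the 2 abundant forms were not called. Pfkl measured 5.79, 10.4 and 7.02 CPM in controls and 13.7, 13.7 and 13.6 CPM in KPC (log2 fold change 0.81 ± 0.24 (SE), adjusted p = 0.0466 in edgeR), close to the threshold. Leaving out control replicate 1 or 3, or KPC replicate 2 or 3, ended that call, with adjusted p between 0.0849 and 0.182. Pfkm, the muscle form, and Pfkp, the platelet form, had log2 fold changes of -0.15 ± 0.11 and -0.10 ± 0.11 (SE) at day 21. They made up 53.8, 49.3 and 56.9% and 43.3, 45.4 and 39.2% of phosphofructokinase transcripts per kilobase in day 21 controls. Without replicate 3, Pfkm (-0.47 ± 0.12) and Pfkp (-0.74 ± 0.11) were called lower at day 26 and Pfkl (0.98 ± 0.27) higher. With replicate 3 kept, limma-voom called Pfkp lower and Pfkl higher (adjusted p = 0.0107 and 0.0223), and DESeq2 called neither. Gpi1, which interconverts the hexose phosphates before that step, had log2 fold changes between 0.03 ± 0.10 and 0.21 ± 0.11 over the days and was not called.

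Among the enzymes of lower glycolysis edgeR called none of the 8 genes Aldoa, Aldoc, Tpi1, Gapdh, Pgk1, Pgam1, Eno1 and Pkm at any day in the full set of libraries. Pgk1, which makes the first ATP of the pathway, measured 21.5, 19.8 and 20.96 CPM in day 14 controls and 24.5, 26.5, 25.6 and 20.3 CPM in KPC. It measured 27.5, 29.04 and 21.99 CPM in day 21 controls and 24.3, 21.7 and 21.3 CPM in KPC, and 27.3, 24.95, 28.9 and 34.01 CPM in day 26 controls and 33.01, 18.8 and 22.1 CPM in KPC. The groups overlapped at every day, and its log2 fold changes were 0.24 ± 0.14, -0.23 ± 0.15 and -0.22 ± 0.22 (SE). Gapdh, Pgam1 and Pkm, for other steps, had log2 fold changes at day 21 of -0.24 ± 0.15, -0.42 ± 0.21 and -0.25 ± 0.10, each below 0 and not called. Tpi1, triosephosphate isomerase, measured 85.02, 98.1 and 91.3 CPM in day 14 controls and 110.01, 101, 98.5 and 105 CPM in KPC, with all 4 KPC libraries above all 3 controls (log2 fold change 0.20 ± 0.10 (SE), adjusted p = 0.397 in edgeR). It measured 119 to 150.04 CPM in day 26 controls and 109, 78.1 and 108 CPM in KPC, with all 3 KPC libraries below all 4 controls (log2 fold change -0.41 ± 0.17 (SE), adjusted p = 0.136 in edgeR, and log2 fold change -0.50 ± 0.17 (SE), adjusted p = 0.0352 without replicate 3). Without KPC replicate 1 at day 21, the library with the most endothelial and myofibre transcripts, Tpi1 (-0.39 ± 0.12), Gapdh (-0.43 ± 0.12) and Pgam1 (-0.71 ± 0.19) were called lower at that day.

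At the lactate step the minor form passed the test at day 21 and the major form did not. Ldha, whose subunit favours lactate formation, measured 151, 126 and 148 CPM in day 14 controls and 179, 195, 167 and 143 CPM in KPC. At day 21 it measured 184, 169.97 and 158 CPM in controls and 180.4, 174 and 181 CPM in KPC, and at day 26 183, 158, 171 and 207 CPM in controls and 237, 99.5 and 169.6 CPM in KPC. The groups overlapped at every day, and KPC replicates 1 and 2 at day 26 lay on opposite sides of the controls. Its log2 fold changes were 0.29 ± 0.12, 0.06 ± 0.10 and -0.08 ± 0.28 (SE).

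Ldhb, the heart-type subunit, measured 8.12, 8.74 and 7.14 CPM in day 21 controls and 20.9, 12.5 and 11.6 CPM in KPC, and it rose (log2 fold change 0.90 ± 0.25 (SE), adjusted p = 0.0358 in edgeR). KPC replicate 1, with the highest endothelial sum of the day, had the highest Ldhb. Without that library the log2 fold change was 0.58 ± 0.23 (SE, adjusted p = 0.0901), no longer past the threshold, and leaving out any single control also ended the call (adjusted p between 0.0905 and 0.135). At day 26 Ldhb measured 23.7, 19.1 and 8.19 CPM in KPC against 6.66 to 11.6 CPM in controls (log2 fold change 1.03 ± 0.36 (SE), adjusted p = 0.103 in edgeR, and log2 fold change 1.34 ± 0.24 (SE), adjusted p = 0.00214 without replicate 3). The lactate and pyruvate carrier Slc16a1 (MCT1) measured 26.3, 25.9, 20.1 and 21.9 CPM in day 26 controls and 122, 63.4 and 22.2 CPM in KPC (log2 fold change 1.56 ± 0.47 (SE), adjusted p = 0.0797 in edgeR, and log2 fold change 1.97 ± 0.25 (SE), adjusted p = 0.000446 without replicate 3). DESeq2 and limma-voom, with every library kept, called Ldhb (adjusted p = 0.0481 and 0.00608) and Slc16a1 (0.011 and 0.00618) higher at day 26. Slc16a3 (MCT4), the export carrier of strongly glycolytic cells, measured 14.02, 1.59 and 1.67 CPM in day 26 KPC libraries and 1.09 to 1.88 CPM in controls. Only replicate 1, the library with the most endothelial, myofibre, mural, leukocyte and neutrophil transcripts of that day, was high for Slc16a3, and the part of those cells in it was not tested. Without replicate 3 Slc16a3 was called higher (log2 fold change 2.52 ± 0.69 (SE), adjusted p = 0.0171 in edgeR), a call that rests on that same library.

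In edgeR the hypoxia factors themselves were not called with every library included, but DESeq2 and limma-voom called Epas1 higher at day 26 (adjusted p = 0.0085 and 0.0231). Hif1a, the inducible alpha subunit, measured 108, 106 and 126 CPM in day 14 controls and 105, 112, 94.1 and 93.02 CPM in KPC. It measured 68.4, 65.1 and 65.9 CPM and 71.3, 66.3 and 65.9 CPM at day 21, and 73.5, 76.2, 64.7 and 89.6 CPM and 73.8, 67.02 and 52.1 CPM at day 26, controls first. The groups overlapped at each day, and the log2 fold changes were -0.15 ± 0.11, 0.02 ± 0.10 and -0.24 ± 0.17 (SE). Arnt, the partner subunit, measured 139.8, 133 and 122 CPM in day 14 controls and 126, 114, 131 and 137 CPM in KPC. It measured 123, 126 and 141 CPM and 141, 168 and 154 CPM at day 21, and 132, 136, 130.2 and 122 CPM and 146, 192 and 154 CPM at day 26, controls first. All KPC libraries lay above all controls at day 26 for Arnt (log2 fold change 0.34 ± 0.14 (SE), adjusted p = 0.128 in edgeR, and log2 fold change 0.36 ± 0.13 (SE), adjusted p = 0.0444 without replicate 3).

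Epas1, which encodes HIF-2 alpha and is abundant in endothelium, measured 62.97, 50.5 and 32.4 CPM in day 14 controls and 81.2, 97.7, 104 and 70.3 CPM in KPC (log2 fold change 0.87 ± 0.22 (SE), adjusted p = 0.0993 in edgeR). It measured 51.5, 55.3 and 50.7 CPM in day 21 controls and 165, 111 and 67.3 CPM in KPC (log2 fold change 1.11 ± 0.30 (SE), adjusted p = 0.0572 in edgeR). The day 26 values were 41.6, 56.9, 40.6 and 35.98 CPM in controls and 315, 90.2 and 51.04 CPM in KPC (log2 fold change 1.81 ± 0.55 (SE), adjusted p = 0.0818 in edgeR, and log2 fold change 2.21 ± 0.47 (SE), adjusted p = 0.00913 without replicate 3). KPC libraries lay above their controls without overlap at days 14 and 21, and at day 26 replicates 1 and 2 did so. The summed endothelial markers without Tek were also above the controls without overlap at days 14 and 21. The order of Epas1 in the 3 KPC libraries of day 21 and of day 26 was that of these sums, but in the day 14 KPC libraries it was not. There the sums were 235, 376, 251 and 257 CPM in replicates 1, 2, 3 and 4, while Epas1 was highest in replicate 3 and lowest in replicate 4. In KPC replicate 2 at day 26 the sum (98.8 CPM) was within the range of that day's controls while Epas1 (90.2 CPM) was above every control. The part of endothelial RNA in the Epas1 values was not tested. Without KPC replicate 1, Epas1 was called higher at day 21 (log2 fold change 0.74 ± 0.17 (SE), adjusted p = 0.00669). Of the 10 endothelial markers, 2 were called higher at day 14, 6 higher and 1 (Tek) lower at day 21, and 0 at day 26, and none was at 0 throughout.

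**Figure D3:**
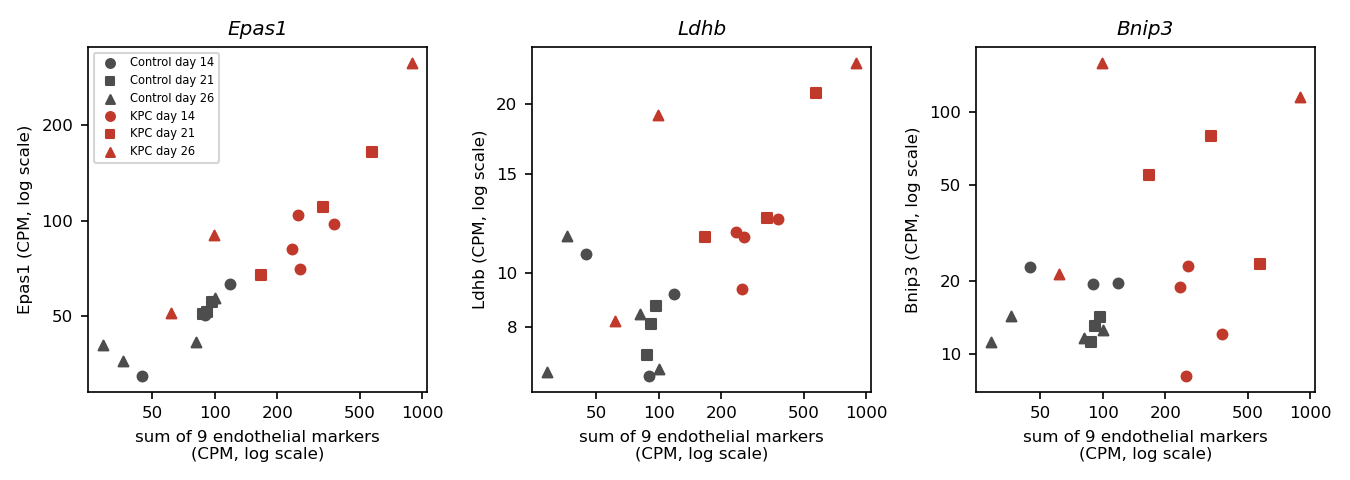
CPM of Epas1, Ldhb and Bnip3 (y axes, log scale) against the summed CPM of 9 endothelial markers, Tek left out (x axis, log scale), in the 20 libraries, with colour for control or KPC and shape for the day. Epas1 and Ldhb are highest in the 2 KPC libraries with sums of 572 and 892 CPM, and Bnip3 is highest in a KPC library with a sum of 98.8 CPM. That library has Ldhb at 19.1 CPM, near the 20.9 CPM at a sum of 572 CPM. The library with a sum of 892 CPM has the second highest Bnip3 (115 CPM).

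The hydroxylase genes Egln1 and Egln3, which encode the oxygen sensors PHD2 and PHD3, were not called by edgeR in the full set of libraries. Egln1 measured 64.8 to 71.3 CPM in day 26 controls and 55.1, 53.6 and 64.3 CPM in KPC, all below the controls (log2 fold change -0.23 ± 0.13 (SE), adjusted p = 0.221 in edgeR), and without replicate 3 it was called lower (log2 fold change -0.33 ± 0.11 (SE), adjusted p = 0.0313). Egln3, often strongly induced by hypoxia, stayed between 1.20 and 3.30 CPM over all 20 libraries.

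Among the 8 hypoxia targets, Adm and Bnip3 rose and the angiogenic factor Vegfa was not called. Adm encodes adrenomedullin, a vasodilator peptide (ENSMUSG00000030790.15, chromosome 7, 110627661 to 110629820, mm10; its promoter is printed above). It measured 82.1, 93.97 and 98.8 CPM in day 14 controls and 90.8, 85.3, 106 and 106 CPM in KPC, overlapping. At day 21 it measured 101, 96.9 and 115 CPM in controls and 335, 1437 and 831 CPM in KPC, and every KPC library was above every control (log2 fold change 3.05 ± 0.57 (SE), adjusted p = 0.033 in edgeR). Leaving out any single control (adjusted p between 0.0826 and 0.121) or KPC replicate 3 (0.0501) ended this call, while without KPC replicate 1 the log2 fold change was 3.43 ± 0.20 (SE, adjusted p = 1.06e-06). At day 26 it measured 119.6, 119, 86.7 and 93.5 CPM in controls and 573, 1507 and 314 CPM in KPC, again with no overlap and with replicate 3 included (log2 fold change 2.91 ± 0.47 (SE), adjusted p = 0.0592 in edgeR, and log2 fold change 3.28 ± 0.33 (SE), adjusted p = 0.000158 without replicate 3). DESeq2 and limma-voom, with every library kept, called Adm higher at day 26 (adjusted p = 6.31e-08 and 0.00123).

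Bnip3, a mitophagy receptor of the outer mitochondrial membrane (chromosome 7, 138890836 to 138909519, mm10), measured 19.5, 19.4 and 22.8 CPM in day 14 controls and 18.8, 12.1, 8.08 and 23.1 CPM in KPC, overlapping. At day 21 it measured 12.96, 14.2 and 11.2 CPM in controls and 23.5, 79.4 and 54.8 CPM in KPC, and it rose (log2 fold change 2.03 ± 0.42 (SE), adjusted p = 0.0286 in edgeR). The call was lost when any single control was left out (adjusted p between 0.0944 and 0.117), and without KPC replicate 1 the log2 fold change was 2.37 ± 0.17 (SE, adjusted p = 5.66e-07). Its day 26 values were 11.6, 12.5, 11.2 and 14.3 CPM in controls and 115, 160.1 and 21.4 CPM in KPC, with no overlap (log2 fold change 2.99 ± 0.55 (SE), adjusted p = 0.0592 in edgeR, and log2 fold change 3.45 ± 0.15 (SE), adjusted p = 4.58e-06 without replicate 3). Its relative Bnip3l (NIX) measured 70.6, 105 and 92.1 CPM in day 21 KPC libraries and 70.1 to 76.7 CPM in controls. In KPC libraries of day 26 it measured 127, 134 and 66.4 CPM and in their controls 58.4 to 67.1 CPM (log2 fold change 0.80 ± 0.23 (SE), adjusted p = 0.0735 in edgeR, and log2 fold change 1.04 ± 0.10 (SE), adjusted p = 0.000105 without replicate 3). DESeq2 and limma-voom, with every library kept, called Bnip3 (adjusted p = 2.62e-06 and 0.00103) and Bnip3l (0.0191 and 0.00206) higher at day 26.

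Vegfa measured 219, 289.8 and 233 CPM in day 14 controls and 229, 248, 243 and 217 CPM in KPC. It measured 211, 186 and 219.6 CPM in day 21 controls and 251, 180.1 and 188 CPM in KPC, and 315, 293, 369 and 235 CPM in day 26 controls and 374, 387 and 276 CPM in KPC. The groups overlapped at every day, and the log2 fold changes were -0.06 ± 0.12, -0.00 ± 0.14 and 0.19 ± 0.21 (SE). Pdk1, which holds pyruvate back from mitochondrial oxidation, had log2 fold changes of 0.46 ± 0.19 at day 21 and 0.61 ± 0.23 at day 26, and in edgeR was called higher at day 26 without KPC replicate 3 (0.76 ± 0.21). With every library kept, limma-voom called Pdk1 higher at day 26 (adjusted p = 0.0361) and DESeq2 did not (0.0734). Pdk3 (0.09 ± 0.28 and -0.30 ± 0.24), Ndrg1 (0.22 ± 0.14 and 0.13 ± 0.22) and Ankrd37 (0.78 ± 0.65 and 1.04 ± 0.50) were not called at either day, also without replicate 3.

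**Figure D4:**
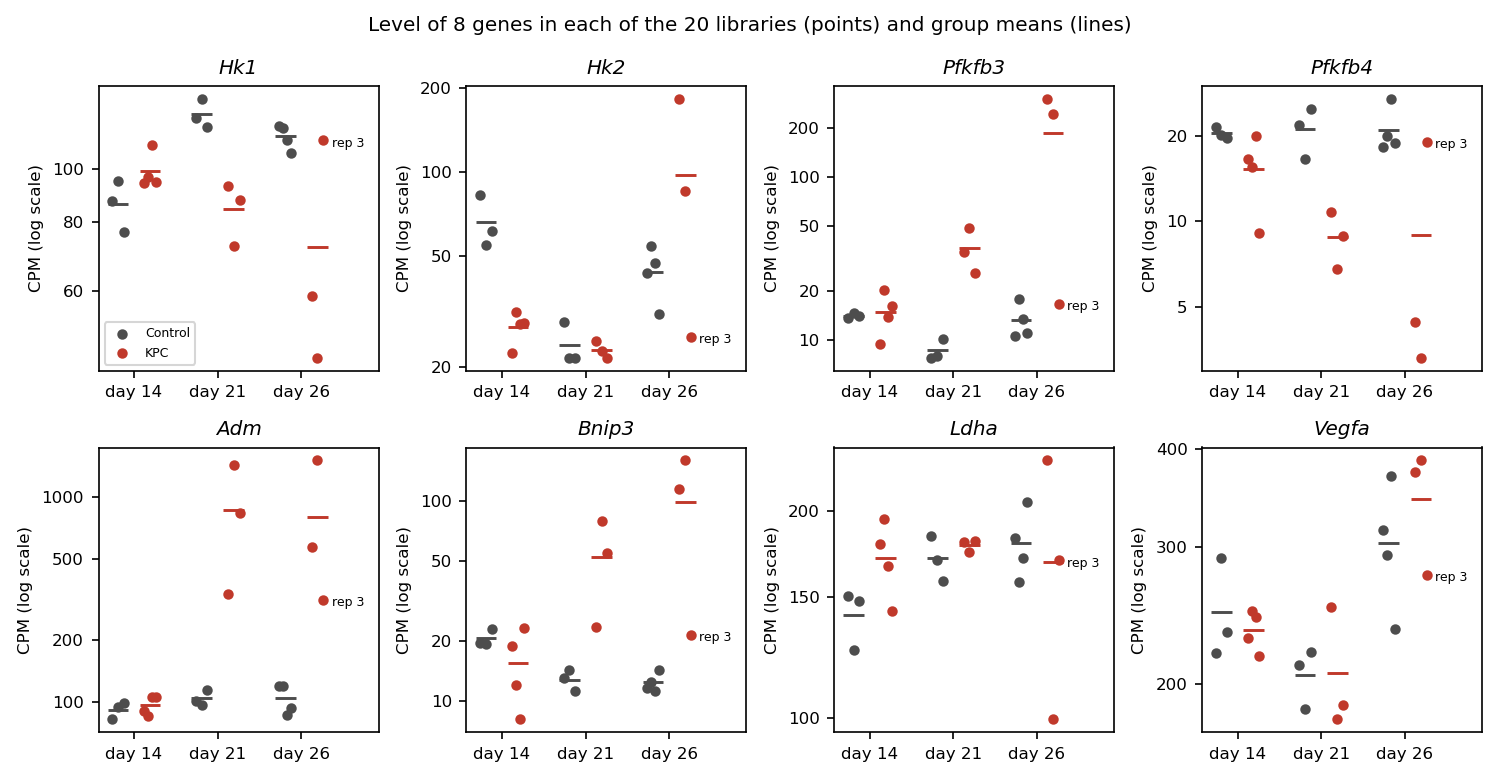
CPM (y axes, log scale) of 8 genes in each of the 20 libraries (points), by day and group, with group means (lines); KPC replicate 3 of day 26 is labelled. Pfkfb3, Adm and Bnip3 rise above controls at day 21 while Hk1 and Pfkfb4 fall below them, and the Ldha and Vegfa groups overlap at every day.

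KPC replicate 1 at day 21 had the highest endothelial, myofibre and leukocyte sums of its day. Without it, 6 members were called higher (9.72% of 13391 genes were) and 5 lower (10% of genes were). The log2 fold changes of Pfkfb3 (2.09 ± 0.24), Adm and Bnip3 were as large without it, as was that of Hk1 (-0.66 ± 0.12) and Pfkfb4 (-1.44 ± 0.23). The codes of the libraries begin with a number whose meaning the labels do not give. At days 14 and 21 no KPC library shares it with a control, so number and tumour cannot be told apart there. At day 26 the number 227 held 3 controls and KPC replicates 1 and 2. Within it edgeR called 13 members higher and 5 lower, where 47.1% of genes were called in either direction. That subset also lacks KPC replicate 3.

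Whether the KPC effect changed over time was tested as the difference between days, each day against its own controls, in edgeR's fit of all 20 libraries. This fit uses 1 spread per gene for all groups, so the scatter of the day 26 KPC libraries is averaged with that of the other groups. The calls from day 14 to day 26 rest on that shared spread, whereas the fit of day 26 alone called 0% of 13157 genes. From day 14 to day 21, 1 of 34 members was called (2.94%, against 0.644% of 14141 genes): the effect on Adm grew by 2.98 ± 0.63 on the log2 scale (SE, adjusted p = 0.04). From day 14 to day 26, 9 members were called (26.5%, against 14.3% of genes), 7 with a higher and 2 with a lower KPC effect at day 26. The largest were Pfkfb3 (3.73 ± 0.81 (SE, adjusted p = 0.0126)), Bnip3 (3.39 ± 0.70 (SE, adjusted p = 0.0116)) and Adm (2.85 ± 0.60 (SE, adjusted p = 0.0117)). Hk2 (2.41 ± 0.56 (SE, adjusted p = 0.0148)) was lower in KPC at day 14 and above the controls in 2 of 3 KPC libraries at day 26. The 3 carriers Slc2a1 (2.01 ± 0.53), Slc16a1 (1.90 ± 0.47) and Slc2a3 (1.85 ± 0.41) also had higher effects, and Hk1 (-0.86 ± 0.28) and Tpi1 (-0.60 ± 0.19) lower ones. The calls of Hk1 and Tpi1 were lost with library size as the only scaling (adjusted p = 0.0568 and 0.0648). From day 21 to day 26, 0 members were called, as were 0% of genes, with 3 (8.82%) at an unadjusted p under 0.05, against 12.9% of genes, all higher (Slc2a1, Slc2a3 and Slc16a1). DESeq2 also called 0 between those days, against 0.403% of genes, and limma-voom 2 (5.88%, against 7.42%). Without KPC replicate 3 of day 26, 15 members were called from day 14 to day 26 (44.1%, against 40.4% of 14600 genes) and 9 from day 21 to day 26 (26.5%, against 21.9%). The Adm call from day 14 to day 21 was lost in 11 of the 13 fits that left out 1 library.

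Other genes of the pathways came from lists drawn up from textbook knowledge, with 50 further genes of glucose metabolism and 57 further targets and regulators of the hypoxia response. Earlier results of these data were known when the lists were made, so shares set beside all genes are descriptions, not independent tests. The second list holds Vhl, Hif1an and other regulators, and also Flt1 and Kdr, which are among the endothelial markers. Of the glucose genes, 40 were tested at day 21, and 2 rose and 5 fell, beside 6.38% and 6.11% of all genes. The insulin-responsive carrier Slc2a4 rose (1.68 ± 0.47 (SE, adjusted p = 0.0368) in edgeR), as did Pdk4 (2.47 ± 0.36 (SE, adjusted p = 0.0084)), a pyruvate dehydrogenase kinase of fasting. The pentose phosphate enzyme Taldo1 fell (-0.76 ± 0.13 (SE, adjusted p = 0.00292)), as did the glycogen phosphorylase Pygl (-0.43 ± 0.11 (SE, adjusted p = 0.0243)), and Pygb, Tkt and the mitochondrial pyruvate carrier subunit Mpc1 were the other genes that fell. At days 14 and 26 none of the 40 was called in edgeR (6 and 16 had an unadjusted p under 0.05, beside 14.3% and 34.3% of all genes, and DESeq2 called 3 and 13, beside 4.5% and 21.4%). Without KPC replicate 3, 7 were higher and 16 lower at day 26 of 41 tested, beside 25.7% and 25.9% of all genes.

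Of the further hypoxia genes, 54 were tested at day 21, where 14 rose and 7 fell, beside 6.38% and 6.11% of all genes. The 4 with the smallest p were the chemokine Cxcl12, which rose (1.34 ± 0.12 (SE, adjusted p = 4.82e-05) in edgeR), and 3 collagen-modifying enzymes that fell: the lysyl oxidase relative Loxl2 (-1.34 ± 0.17 (SE, adjusted p = 0.000832)), the lysyl hydroxylase Plod1 (-0.69 ± 0.10 (SE, adjusted p = 0.00113)) and the prolyl hydroxylase subunit P4ha2 (-1.11 ± 0.19 (SE, adjusted p = 0.00449)). Lox, the lysyl oxidase itself, named after its values were seen, went the other way and rose (1.97 ± 0.38 (SE, adjusted p = 0.0258)). At day 14 only Edn1 (endothelin), 1 of 55 tested, was called, and it fell (-1.08 ± 0.17 (SE, adjusted p = 0.0143)). At day 26 none of 54 was called (31 had an unadjusted p under 0.05, beside 34.3% of all genes, and DESeq2 called 24, beside 21.4%). Without KPC replicate 3, 25 were higher and 10 lower, beside 25.7% and 25.9%.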

How the data were processed

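Each deposited table holds whole, unnormalized counts per gene symbol for 1 day, per the file headers and the labels. Tools named without a role in the submitters' processing notes are STAR, Bowtie, bcl2fastq 2.20, R 4.2.1 and DESeq2 1.36.0, and the build is mm10. Which program counted, whether it used strand, and with which annotation is not given in the sources used here. All 20 columns were matched to samples by the library codes in the labels. The tables of days 14 and 21 each hold 25 symbols turned into dates, which are never named.

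Within each day KPC was compared with control by edgeR 4.0.16 in R 4.3.3 (TMM scaling, filterByExpr with a minimum count of 10 and total of 15, robust quasi-likelihood fit, 2-sided test). P-values were adjusted over all genes of the day. DESeq2 1.42.0 and limma-voom (limma 3.58.1) were alternatives. A standard error is |log2 fold change| over the root of its F value. CPM values use 1 TMM scale over all 20 libraries, whereas fold changes come from each day's own fit. Differences between days are contrasts in a fit of all 6 groups. Exon lengths and positions come from GENCODE vM21 (mm10), and promoters from RefSeq. The scripts were tested on simulated counts.

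The members, the lists of other pathway genes and the markers were chosen with earlier results of these data known. Named with fold change and test are the members called at a day, at day 26 the 6 with the smallest p, and called members of the contrasts; Hif1a, Epas1, Arnt, Vegfa, Slc2a1, Hk1, Hk2, Pfkfb3, Pgk1 and Ldha are given in every library. Other members are named for completeness after their values were seen. Of the other pathway genes, up to 4 called per list and day with the smallest p are named, and Slc2a4, Mpc1, Tkt and Lox beyond it after their values were seen. The p-values measure the spread between these libraries, and counts of a library cover counting error only.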

Additional observations from a re-analysis of the deposited data

Results flagged for a closer look

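In 3 cases 1 library of a group of 4 lay far from the others, by Dixon's criterion at the 95% level, among 68 such checks over the members. About 1 in 20 such groups is expected to stand out by chance. Pfkl measured 9.87 CPM in control replicate 4 at day 26, against 6.75 to 7.17 CPM in the other controls. Ndrg1 measured 229.8 CPM in control replicate 2 at day 26, against 174 to 176 CPM in the others. Aldoa measured 490.2 CPM in KPC replicate 1 at day 14, against 448 to 451 CPM in the others.

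In 10 cases the KPC effect differed between days in edgeR's fit of all 20 libraries, which shares 1 spread per gene over all groups. The difference was 2.98 on the log2 scale for Adm between days 21 and 14. Between days 26 and 14 it was 3.73 for Pfkfb3, 3.39 for Bnip3, 2.85 for Adm, 2.41 for Hk2, 2.01 for Slc2a1, 1.90 for Slc16a1, 1.85 for Slc2a3, -0.60 for Tpi1 and -0.86 for Hk1. The difference for Adm between days 21 and 14 was lost in 11 of the 13 fits that left out 1 library, so it rests on most of them. The calls of Pfkfb3, Slc16a1, Hk2, Slc2a3, Adm and Bnip3 between days 26 and 14 passed in every alternative run for them. That of Slc2a1 was lost without control replicate 3 of day 14 or KPC replicate 1 or 2 of day 26 (adjusted p between 0.0504 and 0.0668). Those of Hk1 and Tpi1 were lost in 13 and 9 of the 14 fits that left out 1 library.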

How the results depend on the processing

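Signs were checked for the members called in edgeR and for the 6 with the smallest p at day 26, and none changed under any alternative. Members that were not called could change sign: Ndrg1 at day 26 was 0.13 with all libraries and -0.09 without KPC replicate 3. At day 14, DESeq2 and limma-voom each called 1 member higher, and fits leaving out 1 library 0 to 1; with all 20 libraries fitted together 0 members were called lower. At day 21 the members called higher numbered 3 with no low-count filter, 1 with all 20 libraries fitted together and 1 to 6 with 1 library left out (1 without control replicate 1, 2 without control replicate 2 and 1 without control replicate 3). Those called lower numbered 0 with all 20 libraries and 2 to 5 with 1 library left out (5 without KPC replicate 1). At day 26 the members called higher numbered 9 in DESeq2, 11 in limma-voom, 13 with all 20 libraries, 13 within library code number 227 (chosen after seeing the data) and 0 to 14 with 1 library left out. Those called lower numbered 3 in limma-voom, 3 with all 20 libraries, 5 within code number 227 and 0 to 6 with 1 library left out; in both directions the highest count came without KPC replicate 3 and every other omission gave 0. The cause of these shifts was not tested, except that leaving out a library leaves fewer samples. Of all genes at day 26, 21.4% were called in DESeq2, 34.3% in limma-voom and 47.1% within code number 227, in either direction. Without KPC replicate 3, 25.7% were called higher and 25.9% lower. Where no share of all genes is given in this report, a count is not read as a result about the members.

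Between days 21 and 14 the count was 2 in DESeq2 (5.88%), 4 in limma-voom and 0 to 1 with 1 library left out. Of the 14141 genes tested between those days, DESeq2 called 284 higher and 107 lower. Between days 26 and 14 it was 6 to 15, and between days 26 and 21 it was 2 in limma-voom and 0 to 9, the highest in both without KPC replicate 3. Replicate numbers did not pair the libraries (correlations of same-numbered deviations from -0.115 to 0.147). With the replicate block, 0 members were called between days 21 and 14 and 7 between days 26 and 14, and the counts within days were those without it, although Adm at day 21 was not called (adjusted p = 0.0664 in edgeR). With library size as the only scaling the median log2 change of all genes was at most 0.06. This scaling changed the split of all calls at day 21 from 839 higher and 804 lower to 1058 and 613, with the members at 5 and 2 in both. Between days 26 and 14 it changed all calls from 1357 and 667 to 1536 and 608 and left 7 and 0 members. Low counts limit the reading of Aldoc, Eno1, Ankrd37, Egln3 and Slc16a3, at few CPM or under 1. For Eno1, which shares sequence with Eno1b, the count may not give the true level.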
